A study of Mus musculus with 2 samples.

Results

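The galectins are a family of lectins, and 8 genes were followed here: Lgals1, Lgals2, Lgals3, Lgals4, Lgals6, Lgals8, Lgals9 and Lgals3bp, which encodes a glycoprotein bound by galectins. They were chosen by name, with earlier results of these data known. Their probes were the gene probes whose RefSeq accession belongs to one of these symbols. Of the 8 genes, 7 were found among 22909 genes on the arrays, with 10 probes. No probe was matched to Lgals6, which was not analysed here. RNA of whole colon was measured on Agilent mouse expression arrays of 1 colour (Cy3). The control was Villin-Cre and the other genotype Villin-Cre; EP4flox/flox, called EP4 cKO, both of strain C57BL/6 and, by the methods, 8 weeks of age. Both carry Cre recombinase driven by the Villin promoter, which is active in the intestinal epithelium, so that the floxed Ptger4 gene, which encodes the prostaglandin E2 receptor EP4, is deleted in epithelial cells and not in the stroma of EP4 cKO colon. There was 1 array per genotype, hybridized with RNA combined from 3 pools of colon. No difference could therefore be checked against replicates, no test was made and no p-value is given.

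Galectins bind β-galactosides on glycoproteins and glycolipids through a conserved carbohydrate-recognition domain. They are made in the cytosol without a signal peptide and leave the cell by a non-classical route, and they act both inside cells and as a lattice on the cell surface. Prototype galectins (Lgals1, Lgals2) have a single domain, tandem-repeat galectins (Lgals4, Lgals8, Lgals9) join a pair of domains by a linker, and Lgals3 joins its domain to a long repetitive tail. In the gut, galectin-3 and galectin-4 are known as abundant products of the epithelium, and galectin-1 as a product of stromal cells.

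The normalized signal of a probe is its processed signal scaled so that the trimmed mean of each array, without 2% of the probes at each end, is 2500. The log2 ratio is EP4 cKO over Villin-Cre, and a gene is called higher or lower here when its brightest probe differs by more than 2-fold, the threshold of the study's methods. All 10 galectin probes were well above background on both arrays and none was saturated. A value could be given to 14679 genes, with a median log2 ratio of -0.10. Of these, 717 (4.88%) passed 2-fold upward in EP4 cKO and 1171 (7.98%) downward. Scaling to the 75th percentile moved this median by 0.10 and gave 942 upward and 921 downward. Ptger4 itself did not separate the arrays. Whether its probes lie in the deleted part was not tested, and the stroma keeps the gene. Its brighter probe had 6227 on Villin-Cre and 5661 on EP4 cKO, its dimmer probe 393 and 592, and the directions below rest on the labels of the arrays.

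Of the 7 galectin genes, 2 (Lgals9 and Lgals3bp) were more than 2-fold higher in EP4 cKO colon, none was lower by as much and 5 lay within 2-fold. The median log2 ratio of the 7 was 0.15. The higher genes were thus 2 of 7 beside 4.88% of all genes, in a set chosen with earlier results of these data known. The genes within 2-fold included Lgals3 and Lgals4.

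**Figure D1:**
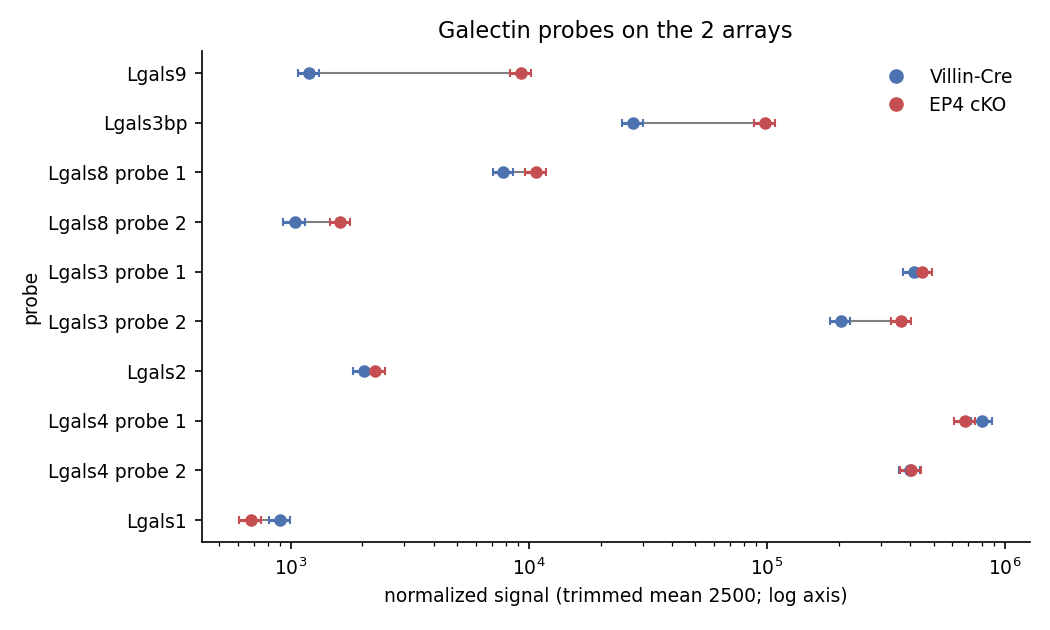
Normalized signal (log axis) of each of the 10 galectin probes in Villin-Cre (blue) and in EP4 cKO (red), with bars for the error that the scanner software gives each signal. Lgals9 went from 1191 to 9236 and Lgals3bp from 27270 to 98286, while both probes of Lgals4 stayed within 2-fold.

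Lgals9 encodes galectin-9, a tandem-repeat lectin known as an interferon-inducible product and as a ligand of Tim-3, an inhibitory receptor on T cells. Its probe (A_55_P2070079) had a normalized signal of 1191 in Villin-Cre and 9236 in EP4 cKO. The EP4 cKO signal was 7.75-fold higher, a log2 ratio of 2.95 with an error of 0.21 from the error model of the scanner software, which covers the measurement of the spot and not the mice. Only 106 of the 14679 genes (0.722%) had a larger ratio.

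Lgals3bp encodes a secreted glycoprotein with a scavenger-receptor domain, first known as a partner of galectin-3, and is also known as interferon-inducible. Its probe (A_51_P359636) had 27270 on Villin-Cre and 98286 on EP4 cKO. This was 3.60-fold higher, a log2 ratio of 1.85 with an error of 0.20, and 232 genes (1.58%) had a larger ratio. Lgals9 and Lgals3bp were each represented by a single probe with a single spot, so that neither value has a check by another probe. Both were more than 2-fold higher under each of the 8 other settings tried, which changed the scaling, the filter on dim probes or the probe of a gene. The setting farthest from the rest was scaling to the E1A spike-ins, control RNA added to each sample, which raised the median of all genes by 0.97 and put 39.1% of them more than 2-fold higher, so that counts under it are read against that share. The log2 ratio ran from 2.76 to 3.99 for Lgals9 and from 1.82 to 2.88 for Lgals3bp.

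**Figure D2:**
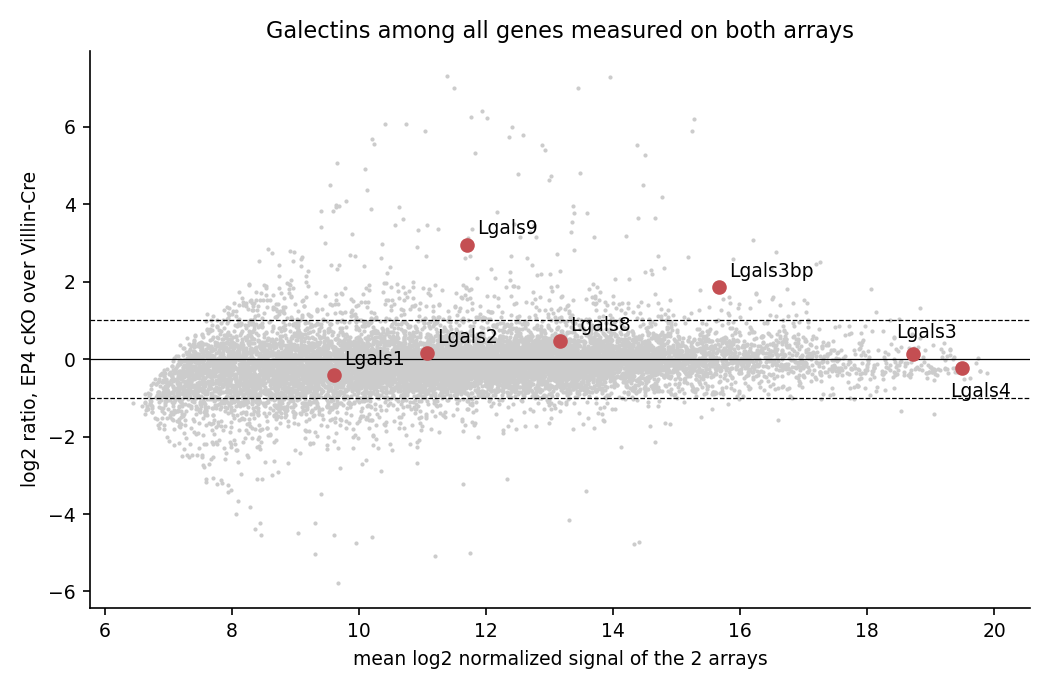
Log2 ratio of EP4 cKO over Villin-Cre against the mean log2 normalized signal, with 1 grey point for each gene well above background on both arrays and the 7 galectin genes in red by their brightest probe; dashed lines mark 2-fold. Lgals9 (2.95) and Lgals3bp (1.85) lie above the upper line, and Lgals8, Lgals3, Lgals2, Lgals4 and Lgals1 lie between the lines.

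The start regions of both genes are shown because these genes were the ones past 2-fold. The sequences are from RefSeq (build GRCm38.p6), 5′ to 3′ on the strand of the gene, from 250 bases before the annotated start to 30 bases after it. Capitals mark matches to the core of the interferon-stimulated response element, written here as GAAA and GAAA with 2 bases of any kind between them, which reads TTTC and TTTC on the other strand. Lgals9 lies on the minus strand at chr11:78984895-78985174 and Lgals3bp on the minus strand at chr11:118401930-118402209.
Lgals9: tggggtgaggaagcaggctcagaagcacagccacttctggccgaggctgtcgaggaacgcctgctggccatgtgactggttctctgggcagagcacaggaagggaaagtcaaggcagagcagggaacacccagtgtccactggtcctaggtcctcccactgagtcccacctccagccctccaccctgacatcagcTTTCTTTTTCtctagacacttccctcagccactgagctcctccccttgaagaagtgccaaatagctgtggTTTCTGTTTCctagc
Lgals3bp: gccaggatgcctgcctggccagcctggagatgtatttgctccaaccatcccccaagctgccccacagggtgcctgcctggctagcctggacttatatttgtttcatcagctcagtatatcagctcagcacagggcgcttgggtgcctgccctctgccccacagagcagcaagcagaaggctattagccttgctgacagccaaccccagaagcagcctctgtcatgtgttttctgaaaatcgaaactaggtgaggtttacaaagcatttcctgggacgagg
Lgals9 held 2 such matches, both on the opposite strand, beginning at -55 and at 15 with the annotated start as 0. Of 32851 windows of 300 bases over all genes, 3.44% held this motif on either strand and 0.225% held it at least 2 times. A window was found for 6 of the 8 genes. Lgals2, Lgals3, Lgals3bp, Lgals4 and Lgals8 had no match in their windows. The gamma-activated site, TTC and GAA with 3 bases of any kind between them, which reads the same on both strands, was in 8.30% of all windows and in none of the 6. Of 20 interferon-stimulated genes of the list below with a window, 13 held the core of the response element. A match is a stretch of letters and not evidence of a site in use. The search for the response element took the stated spacing of 2 bases only. The Lgals3bp sequence holds gaaa and gaaa with 3 bases between them, which was not counted and whose use was not tested.

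Lgals3 encodes galectin-3, which forms surface lattices and gathers on damaged vesicles. Its 2 probes differed. The brighter one (A_55_P2171116, 1 spot) had 412143 on Villin-Cre and 448219 on EP4 cKO, a log2 ratio of 0.12 with an error of 0.20. The other probe (A_51_P101929), spotted 10 times with 1 spot left out as an outlier, had from 193857 to 211223 (median 203664) over 9 spots on Villin-Cre and from 351660 to 385505 (median 368710) on EP4 cKO. The spots of the arrays did not overlap for this probe, and its mean log2 ratio was 0.85 ± 0.04 (SD over 9 spots of 1 hybridization, no replicate of the mice). Both probes were thus higher in EP4 cKO, the first by less than the error of its spot and the second by 1.80-fold. The second probe lay close to the 2-fold line and crossed it with scaling to the 75th percentile (log2 ratio 1.01), with normexp and quantile normalization (1.04) and with the spike-ins (1.88), whereas the first passed it only with the spike-ins (1.16). The gap between the probes was 0.73 on the log2 scale. Over 4103 genes with more than 1 probe measured on both arrays, the gap had a median of 0.24 and 12.5% had a gap at least as large. The brighter probe is assigned to the accession NM_001145953 and the other to NM_010705, both transcripts of Lgals3, and a difference between transcripts was not tested.

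**Figure D3:**
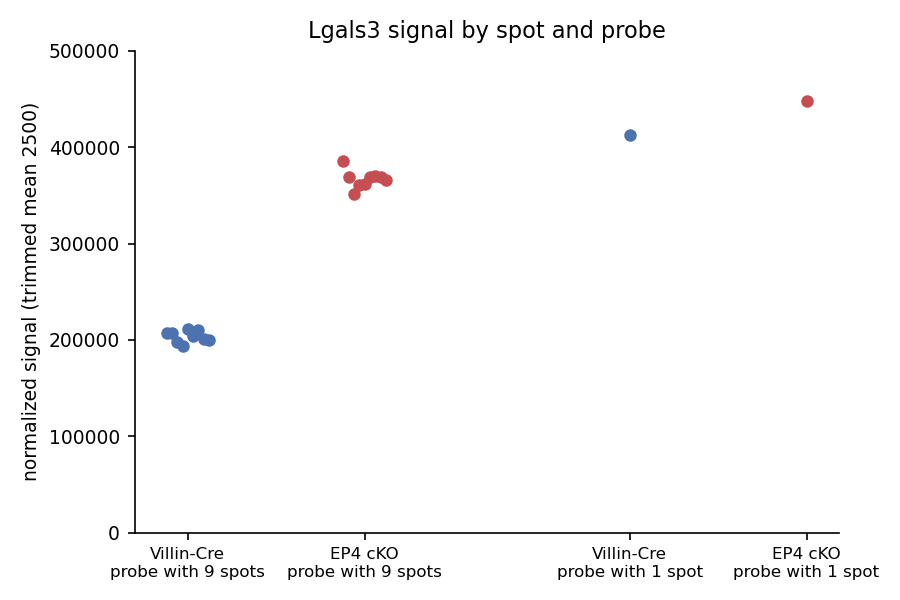
Normalized signal (axis from 0) of Lgals3 by spot, for the probe with 9 spots used and the probe with 1 spot, on Villin-Cre (blue) and EP4 cKO (red). The 9 spots lie between 193857 and 211223 on Villin-Cre and between 351660 and 385505 on EP4 cKO, whereas the other probe had 412143 and 448219.

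Lgals4 encodes galectin-4, an epithelial lectin that stabilizes lipid rafts and carries brush-border enzymes to the apical membrane. Its brighter probe (A_55_P2063256) had 801162 on Villin-Cre and 679445 on EP4 cKO, a log2 ratio of -0.24 with an error of 0.20. The other probe (A_52_P634250) had 397015 and 403411, a log2 ratio of 0.02. The probes thus had opposite signs, both within 2-fold, and the ratio of the brighter one turned positive (0.80) with scaling to the spike-in control spots. Lgals6 is known as a close copy of Lgals4 that some mouse strains carry, and whether the Lgals4 probes also bind its RNA was not tested.

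Lgals8 encodes galectin-8, which binds glycans exposed on ruptured endosomes and recruits the autophagy machinery. The brighter probe (A_52_P598128) had 7816 on Villin-Cre and 10723 on EP4 cKO (log2 ratio 0.46). The dimmer one (A_51_P316981) had 1040 and 1617 (0.64). Both were higher in EP4 cKO by more than the error of their spots (0.20 and 0.21) and by less than 2-fold.

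The prototype galectins were within 2-fold. Lgals2, a lectin of the gut epithelium, had 2034 on Villin-Cre and 2257 on EP4 cKO (probe A_52_P563375), a log2 ratio of 0.15, less than its error of 0.21. Lgals1, a lectin of stromal and muscle cells, had 902 on Villin-Cre and 677 on EP4 cKO (probe A_51_P465281), a log2 ratio of -0.41 with an error of 0.21, and was the lowest ratio of the 7. It was between -0.41 and -0.17 under the 7 settings chosen first and positive (0.62) with scaling to the spike-in control spots.

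Fibroblast markers were lower beside Lgals1. All 6 fibroblast markers with a value were more than 2-fold lower in EP4 cKO, beside 7.98% of all genes. The count of markers was 5 with the 75th percentile, the trimmed mean over all spots, loess, normexp and quantile normalization or the spike-ins. It was 3 when bounds were left out. Under these settings the share of all genes lower ran from 2.30% (spike-ins) to 6.53% (trimmed mean over all spots). Dcn, a small proteoglycan of connective tissue, went from 6006 to 110, Col1a2, a chain of type I collagen, from 3613 to 111, and Col3a1, the chain of type III collagen, was at least 28.0-fold lower. The summed signal of the list was 13311 on Villin-Cre and 404 on EP4 cKO, and Col1a1, Col3a1, Lum and Pdgfra were not well above background on EP4 cKO. Smooth muscle markers had mixed values. Of 4 measured on both arrays, Cnn1 was lower (log2 ratio -2.73), whereas Tagln (0.38), Acta2 (0.62) and Actg2 (0.72) lay within 2-fold with higher values in EP4 cKO by their brightest probes, with a median of 0.50 over the 4. A dimmer probe of Acta2 had -0.58, the spike-ins put 3 markers more than 2-fold higher, and Des was well above background on EP4 cKO only, with no fold above 1. The part of the stroma in the value of Lgals1 was not tested, and in whole tissue fewer cells of a type and less RNA per cell cannot be told apart.

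The epithelial markers were present on both arrays. Of 10, 9 lay within 2-fold and Krt20, a keratin of surface epithelium, was higher (146575 and 510711, a log2 ratio of 1.80), but with the spike-ins 8 of the 10 were more than 2-fold higher. The median was 0.37, and the summed signal of the list was 1992220 on Villin-Cre and 2600370 on EP4 cKO. Of 7 macrophage markers, 5 had a value and none passed 2-fold by its brightest probe. With the 75th percentile or the trimmed mean over all spots 1 macrophage marker was higher, and with the spike-ins 2. The median over those measured on both arrays was 0.12, C1qa was well above background on EP4 cKO only, with no fold above 1, and the summed signal of the 5 was 14137 on Villin-Cre and 19257 on EP4 cKO. Cd14, a coreceptor for bacterial lipopolysaccharide, carried the higher sum with 8483 and 15583 (0.88), while Csf1r, the receptor that macrophages need to survive, had 4874 and 2817 (-0.79). The dimmer probe of Cd14 had 5818 on Villin-Cre and 12039 on EP4 cKO (1.05), past 2-fold. That of Csf1r had 1392 and 1103 (-0.34). Adgre1 and Lyz2 were at background on both arrays. The part of the makeup of cells in any galectin value was not tested.

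Of 4 other genes of the galectin fold, 3 had a value, 0 were more than 2-fold higher and 1 was lower by a bound. The counts depended on the setting. Lgalsl and Lgals12 lay under the 2-fold line. With the 75th percentile, loess, the trimmed mean over all spots or the spike-ins 2 genes were past it, and 1 with the mean over a gene's probes. None was lower with loess, normexp and quantile normalization, the spike-ins or probes detected on both arrays only. Lgalsl, a galectin-related protein not known to bind lactose, had 4207 on Villin-Cre and 8151 on EP4 cKO by its brighter probe (log2 ratio 0.95), and 1089 and 2329 by the other (1.10), on either side of the 2-fold line. Lgals12, a galectin of fat cells, had 1831 and 3341 by 1 probe (0.87) and 1466 and 1201 by the other (-0.29), so that its probes had opposite signs, with a gap that 4.02% of genes reached. Grifin, a lens protein related to galectins, had 148 on Villin-Cre and was not well above background on EP4 cKO, which makes it at least 2.57-fold lower by a spot whose error was 0.61 on the log2 scale. Lgals7, a galectin of stratified epithelia, did not rise well above background on any array.

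Of 14 binding partners and receptors, 12 had a value, none was more than 2-fold higher or lower, and the median log2 ratio was 0.27. The absence of higher genes depended on the scaling, with 2 higher under the 75th percentile, loess and the trimmed mean over all spots and 8 with the spike-ins. The largest ratios were those of Ptprc, the leukocyte phosphatase CD45 (0.97), and Cd44, the hyaluronan receptor (0.96), which are named here after their values were seen. The galectin-9 receptor Havcr2 (Tim-3) and Lag3 did not rise well above background on any array. Of 10 genes that act with galectins at damaged membranes, none passed 2-fold (median 0.29). Pdcd6ip, which encodes the ESCRT adaptor ALIX, had 0.94 by its brightest probe, but 0.82 and -0.06 by its dimmer ones. With the 75th percentile or the trimmed mean over all spots 1 of the 10 genes was higher, and with the spike-ins 7.

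Of 12 genes of N-glycan branching and capping, which build galectin ligands, 1 was more than 2-fold lower, beside 7.98% of all genes, and none higher (median -0.16). With the 75th percentile, loess and the trimmed mean over all spots 1 was higher, and with the spike-ins 3 were higher and 0 lower. The lower gene was St6gal1, the sialyltransferase that caps galactose in the linkage known to block several galectins, which went from 3643 on Villin-Cre to 1429 on EP4 cKO (log2 ratio -1.35). Mgat5, the enzyme that begins the branch preferred by galectin-3, had 198 and 116 (-0.77) and B3gnt2, which extends poly-lactosamine chains, 1972 and 3862 (0.97), the latter close to the 2-fold line.

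Interferon-stimulated genes were higher beside Lgals9 and Lgals3bp, in a list chosen with earlier results of these arrays known. All 24 interferon-stimulated genes with a value were more than 2-fold higher in EP4 cKO, beside 4.88% of all genes. Their median log2 ratio was 3.37. Oas2, an antiviral nucleotide synthetase, had 208 and 14046 (6.07). Ifit1, which binds viral RNA, was at least 67.3-fold and Gbp2, a GTPase of cell-autonomous defense, 53.0-fold higher. The ratio of Lgals9 (2.95) lay below the median of this list and that of Lgals3bp (1.85) near its low end, where Irf9 had 1.75 and Ifih1 1.29. The other 5 galectins lay below every gene of the list. Whether the 2 genes share a cause with this list was not tested.

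**Figure D4:**
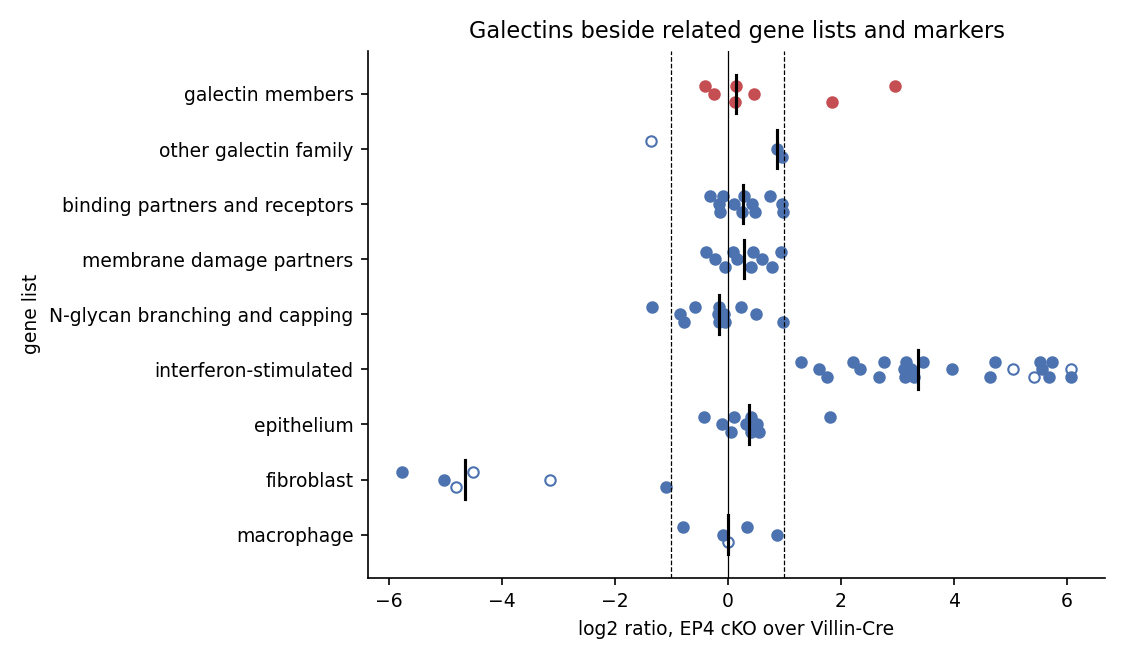
Log2 ratio of EP4 cKO over Villin-Cre for each gene of the galectin set (red) and of related lists and cell markers (blue), by the brightest probe; open circles are bounds from probes well above background on 1 array only, black bars are list medians and dashed lines mark 2-fold. The galectins run from -0.41 to 2.95, the interferon-stimulated genes lie from 1.29 to 6.07 and the fibroblast markers from -5.77 to -1.09.

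The order of the galectin ratios was Lgals9, Lgals3bp, Lgals8, Lgals2, Lgals3, Lgals4 and Lgals1. Lgals2 (0.15) and Lgals3 (0.12) differed by less than the error of their spots, and Lgals3 moved above Lgals2 with the mean of its probes (0.48) and with normexp and quantile normalization (0.33 against 0.21). Measured against the median of all genes, Lgals9 was higher by 2.76 to 3.12 on the log2 scale and Lgals3bp by 1.82 to 2.02 under the 5 other ways of scaling, and Lgals1 stood at -0.28 to -0.17.

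**Figure D5:**
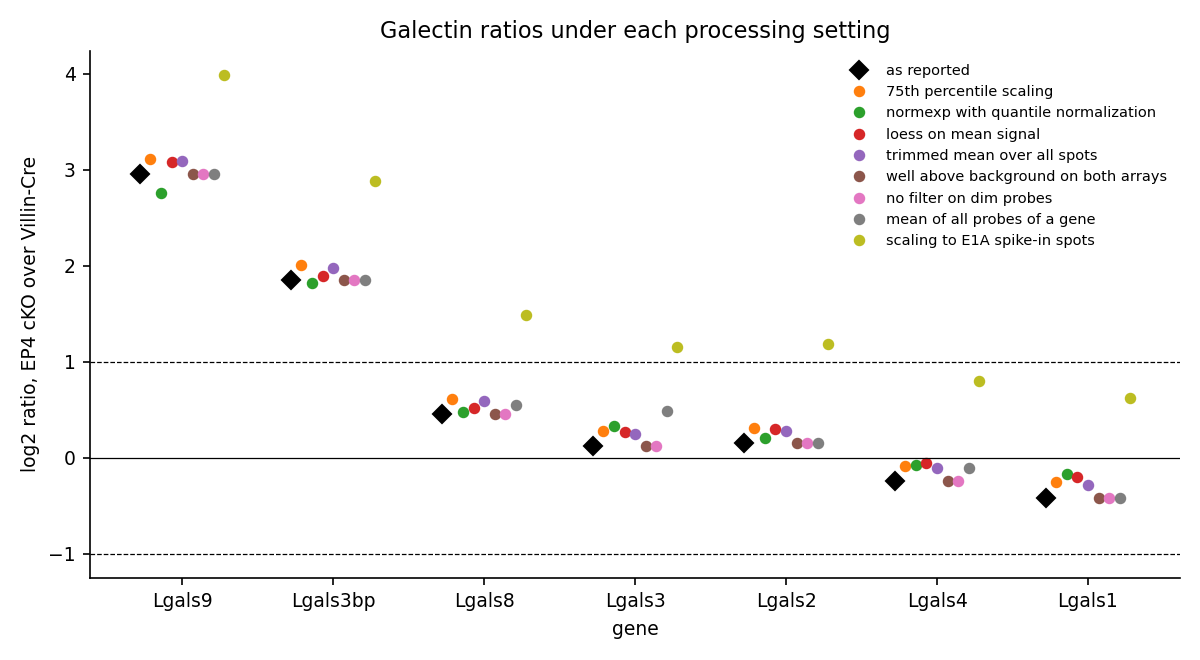
Log2 ratio of EP4 cKO over Villin-Cre for each of the 7 galectin genes as reported (black diamonds) and under 8 other settings (coloured points), with dashed lines at 2-fold. Lgals9 and Lgals3bp stay above the upper line throughout, and scaling to the spike-in spots raises every gene, turns Lgals1 (0.62) and Lgals4 (0.80) positive and puts Lgals8, Lgals2 and Lgals3 past 2-fold, as it does 39.1% of all genes, with each gene shown by its brightest probe except under the mean of its probes.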

How the data were processed

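RNA of whole colon was measured on 2 arrays, 1 per genotype, grouped by the genotype in the labels. The authors deposited scanner output, and the intensity used is the processed signal, from which the scanner software (Feature Extraction 12.0.3.1 by the file header, 11.5.1.1 by the submitters' processing notes) had subtracted background and removed spatial trends. It was not normalized between arrays. The deposited flags of control spots, outliers, saturation and detection (well above background) were kept.

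Control spots were left out, as were spots with an outlier flag on any array, and the remaining spots were averaged by probe, which left 56593 probes. Signals were scaled as in the methods, by 3.45 for Villin-Cre and 2.68 for EP4 cKO. For a probe detected on a single array, the fold is a bound, taken against the larger of the dim signal and that array's lowest detected normalized signal (125 in Villin-Cre, 57.8 in EP4 cKO). Bounds that do not exceed 1 were set to a log2 ratio of 0. The brightest probe stands for a gene. Probes were named through their RefSeq accession in a gene table of GRCm38.p6 (32989 of 56593 matched). The design of the arrays uses an older build, and probe coordinates are not given. Gene signals are not compared between probes. The number of arrays limits the precision.

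The galectins, gene lists and markers were chosen with earlier results of these data known. Genes named were all galectins, Ptger4, all other galectin-fold genes and, from each list, up to 3 with the largest rises and falls past 2-fold; other genes were named after their values were seen. The settings tried were the 75th percentile, normexp (offset 50, on the median signal) with quantile normalization, loess (span 0.3), a trimmed mean taken over every spot, probes detected on both arrays only, dim probes kept without a bound, the mean over the probes of a gene, thresholds of 1.5-fold and 3-fold, and, added after seeing the data, scaling to the E1A spike-in spots. The steps were tested on simulated data. Python 3.11.15, numpy 2.4.6, pandas 2.3.3, statsmodels 0.14.6, matplotlib 3.10.9, R 4.3.3 and limma 3.58.1 were used.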

Additional observations from a re-analysis of the deposited data

How the results depend on the processing

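The 2 galectin genes higher and 0 lower were the counts under the 7 planned settings other than the threshold and at 1.5-fold and 3-fold. With scaling to the E1A spike-in spots, a setting chosen after seeing the data, 5 were higher and 0 lower, beside 39.1% and 2.30% of all genes. The spike-ins, RNA added to each sample, had a median log2 ratio between -1.14 and -0.88 after the reported scaling, and this setting moved the median of all genes by 0.97. The cause was not tested. The median log2 ratio of the 7 galectins was 0.15 as reported, 0.31 with the 75th percentile, 0.33 with normexp and quantile normalization, 0.30 with loess, 0.28 with the trimmed mean over all spots, 0.48 with the mean over a gene's probes and 1.19 with the spike-ins. Lgals9 and Lgals3bp stayed past 2-fold in each of 8 recomputed values per gene, whereas Lgals1 and Lgals4 changed sign with the spike-ins. Without a filter on dim probes, 1172 genes were higher and 7253 lower over all genes, against 717 and 1171, and with normexp and quantile normalization 605 and 394. No array could be left out. No paired analysis was possible because there was 1 array per genotype. Lgals7, Havcr2 and Lag3 were too dim on both arrays, and Grifin on one, for a measured ratio.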

Other observations

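Markers of other cells gave mixed values. Of 6 goblet cell markers, Clca1, a secreted protein of mucus, was more than 2-fold higher (log2 ratio 1.31; 3 of the 6 with the spike-ins), and 5 lay within 2-fold, among them Muc2, the main mucin of the colon (-0.06). Of 5 T-cell markers with a value, Cd3g, a chain of the T-cell receptor complex, was higher (1.28), a call lost with normexp and quantile normalization, and with the spike-ins 3 were. Cd3e, a chain of the same complex, had -0.10 and -0.79 by its probes, and the probes of Cd3d, another chain, had opposite signs (-0.79 and 0.90). Of 3 neutrophil markers with a value, S100a9 was higher (289 on Villin-Cre and 689 on EP4 cKO, 1.25). S100a8, with 85 and 355, was at least 2.83-fold higher. The far brighter Csf3r had 106452 and 81629 (-0.38). With probes detected on both arrays only, 1 neutrophil marker was higher, and at 3-fold 0. Without a filter on dim probes 2 were higher and 1 lower. None of the 3 B and plasma cell markers with a value passed 2-fold, though 1 was higher with loess, 2 with the spike-ins, and 1 higher and 1 lower without a filter on dim probes, and of 4 endothelial markers only Pecam1 had a value (-0.18).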
